A study of Mus musculus with 6 samples.

Results

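Oxidant defence in the liver rests on a transcription factor, NRF2 (encoded by Nfe2l2), and on the enzymes it helps to switch on. KEAP1 holds NRF2 in the cytoplasm and hands it to degradation, and oxidants or electrophiles that modify KEAP1 let NRF2 reach the nucleus, where it pairs with small MAF proteins on antioxidant response elements. Its known targets reduce quinones and carbonyls, make glutathione and keep thioredoxin and peroxiredoxins working, while catalase, the superoxide dismutases and several glutathione peroxidases form a constitutive layer of defence that hepatocytes express strongly. The genes described here are 39 members of these systems, listed by name: the NRF2 regulators, NRF2 targets, glutathione synthesis, thioredoxin and thiol repair enzymes, peroxiredoxins, glutathione peroxidases, superoxide dismutases and catalase. Glutathione transferases were not included. A probe carried the symbol of 35 of the 39, with 64 probes among the 45281 on the array, and the 35 are among 19057 genes read by a probe with a single symbol. Gsr, Ggt1, Prdx5 and Prdx6 matched no probe by symbol, gene identifier or accession and were not analysed here.

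The arrays compared 3 liver tumours with the liver beside each of them. All animals, tumour and adjacent alike, were C57BL/6J mice aged 6 months that had been given 3e+10 particles of the AAV-Rian-CMV vector, an adeno-associated virus for gene targeting at Rian, a non-coding gene of the imprinted Dlk1-Dio3 cluster, as newborns. The titles number the animals 1293, 1309 and 1316, and each gave 1 tumour and its own adjacent piece. A second field numbers the tumour of animal 1316 differently, so its pairing rests on the title. No liver from uninjected mice was among the arrays, so the reference is liver that had received the vector and lay next to a tumour.

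On each array, 29.2% to 31.7% of probes exceeded a background level, which was set from that array's own dim probes. Rian, the targeted gene, was below that level on the 3 adjacent arrays (6.18 ± 0.10) and above it on the 3 tumour arrays (8.37 ± 0.35, log2 signal, SD, n = 3). Of 8 hepatocyte markers, Ttr, Apoa1, Apob, Serpina1a and Hnf4a were above background on every array and not called, and Tat was below background on all. Cps1 rose by 0.59 (adjusted p = 0.044) and Alb, read by a dim probe at 7.71 ± 0.10 in adjacent liver and 6.87 ± 0.26 in tumours, fell by 0.84 (adjusted p = 0.00824). All values are log2 of background-corrected, quantile-normalized probe brightness, so a difference of 1 is a 2-fold difference, and the offset of 50 used in the correction understates folds of dim genes. A gene was read from its brightest probe. Levels were compared only between arrays for the same probe, since brightness also depends on the probe. "Called" means an adjusted p under 0.05 over all 45281 probes (limma, Benjamini-Hochberg). Counts at an unadjusted p under 0.05 are given without the share of all genes that pass it. They therefore do not show whether a list differs from all genes.

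The promoter windows of 5 members are shown because they carry or lack the letters that NRF2 and its partners are known to bind, with 3 members called higher (Srxn1, Nqo1 and Cbr3) beside 2 that were not called (Gclm and Prdx1). Each window runs 5′ to 3′ across the annotated start of transcription, on the gene's strand, from RefSeq (GRCm38.p6). Capitals mark matches to the antioxidant response element core TGACNNNGC or to TGANTCA, the site shared by AP-1 and MAF proteins, on either strand.
Srxn1, chr2:152105274-152105573, plus strand: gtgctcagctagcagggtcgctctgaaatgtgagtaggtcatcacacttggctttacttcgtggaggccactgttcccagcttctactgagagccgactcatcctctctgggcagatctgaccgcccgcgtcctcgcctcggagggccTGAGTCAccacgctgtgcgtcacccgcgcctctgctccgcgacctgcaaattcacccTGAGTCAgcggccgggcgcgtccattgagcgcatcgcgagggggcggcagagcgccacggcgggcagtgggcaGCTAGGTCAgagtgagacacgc
Nqo1, chr8:107403156-107403455, minus strand: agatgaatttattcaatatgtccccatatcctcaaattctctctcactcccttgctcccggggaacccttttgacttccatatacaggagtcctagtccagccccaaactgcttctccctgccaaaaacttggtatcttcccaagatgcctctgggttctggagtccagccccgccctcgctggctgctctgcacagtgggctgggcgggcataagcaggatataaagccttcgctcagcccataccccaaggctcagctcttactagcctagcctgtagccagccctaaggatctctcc
Cbr3, chr16:93682969-93683268, plus strand: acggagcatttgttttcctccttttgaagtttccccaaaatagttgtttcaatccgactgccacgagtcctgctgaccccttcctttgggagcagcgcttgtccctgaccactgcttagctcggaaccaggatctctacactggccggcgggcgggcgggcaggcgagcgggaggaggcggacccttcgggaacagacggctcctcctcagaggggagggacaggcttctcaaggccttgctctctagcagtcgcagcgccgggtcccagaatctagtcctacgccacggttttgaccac
Gclm, chr3:122245307-122245606, plus strand: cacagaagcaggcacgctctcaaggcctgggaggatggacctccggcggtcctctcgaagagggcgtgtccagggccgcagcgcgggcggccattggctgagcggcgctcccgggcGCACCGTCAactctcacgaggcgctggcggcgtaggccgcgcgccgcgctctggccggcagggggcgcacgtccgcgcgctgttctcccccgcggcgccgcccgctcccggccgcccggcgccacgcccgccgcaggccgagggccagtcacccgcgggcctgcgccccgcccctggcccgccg
Prdx1, chr4:116685349-116685648, plus strand: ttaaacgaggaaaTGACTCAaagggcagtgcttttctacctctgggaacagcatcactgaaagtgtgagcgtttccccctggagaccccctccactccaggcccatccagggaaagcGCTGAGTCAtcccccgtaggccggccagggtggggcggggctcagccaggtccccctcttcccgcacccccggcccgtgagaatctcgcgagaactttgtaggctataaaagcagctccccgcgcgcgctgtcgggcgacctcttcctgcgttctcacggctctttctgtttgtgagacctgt

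Srxn1 held 2 matches to TGANTCA, at bases -102 to -96 and -45 to -39 from the start, and a TGACNNNGC match at 29 to 37 downstream of it. In Prdx1 the TGACNNNGC match at -133 to -125 overlaps one of its 2 TGANTCA matches. Nqo1 and Cbr3 held neither motif here, which says only that the letters are not in the window. Some genes have several windows (3 of the 31 measured members with any), so shares were counted per gene, with a match in any of its windows. TGACNNNGC was found in 8 of these 31 members (25.8%) and in 14% of all 27025 genes, and TGANTCA in 5 of 31 (16.1%) and in 8.97% of all genes. Per window, 12.4% and 7.81% of all 32851 windows held them. Of the members called higher, 1 of 9, Srxn1, held TGACNNNGC, against 7 of 21 that were not called. The motif counts describe these windows and were not tested.

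A few members rose strongly in tumours, while most of the list did not pass the test. Cbr3, Gpx3, Srxn1, Nqo1 and Cbr1 rose by 3.08-fold to 11.8-fold, and Gss, Sqstm1, Txn2 and Gpx7 by less than 2-fold. Catalase was the 1 member called lower. In all, 9 of 35 measured members were called higher, against 3.64% of all genes, and 1 was called lower, against 1.56% of all genes. The members were chosen with earlier results of these data known, so such shares are a description and not a test. Over the 19057 genes 694 were called higher and 298 lower. Scaling arrays to their medians gave 755 and 130, and leaving out the background correction 527 and 126. The members are mostly well-expressed genes: 31 of the 35 had a mean signal above the background level, and among the 8169 genes of that kind 7.85% were called higher and 3.55% lower. The median difference over the 35 members was 0.15 on the log2 scale, and -0.01 over all genes.

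**Figure D1:**
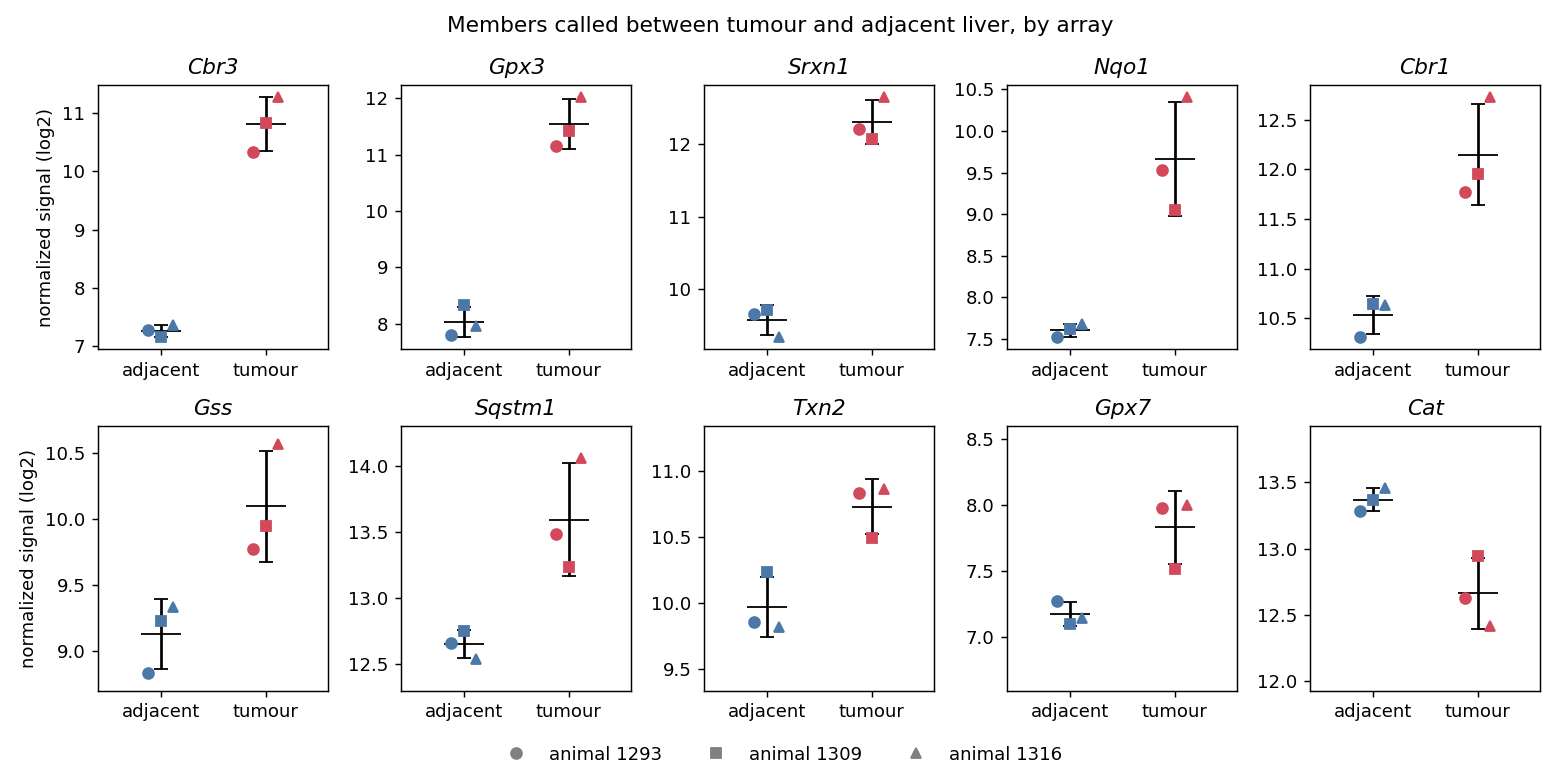
Normalized log2 signal (vertical axes, a different range for each gene) of the 10 called members on each of the 6 arrays. Points are arrays, with the animal given by the symbol, and bars show the mean and SD of 3 arrays. In the 9 genes called higher every tumour lies above every adjacent liver, in Cat every tumour lies below, and the tumour of animal 1316 (triangle) is the highest tumour in all 9.

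Among the regulators, the adaptor gene was called and the factor and its inhibitor were not. Sqstm1, the gene of the autophagy receptor p62, which binds KEAP1 and can draw it away from NRF2, read 12.66, 12.75 and 12.54 in the adjacent livers of animals 1293, 1309 and 1316 and 13.49, 13.23 and 14.06 in their tumours. The groups do not overlap and Sqstm1 rose by 0.94 (SE 0.19, adjusted p = 0.0165). Without the tumour of animal 1293 its adjusted p was 0.0613, without the adjacent liver of animal 1316 it was 0.0813, and with a normexp offset of 16 it was 0.0743.

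Nfe2l2 itself read 8.52, 8.57 and 8.55 in adjacent livers and 8.84, 8.83 and 9.36 in tumours. Every tumour was above every adjacent liver, most of all in animal 1316, but the difference of 0.47 (95% interval 0.13 to 0.80) was not called (adjusted p = 0.152). A second Nfe2l2 probe was below background on all arrays. Keap1 read 9.90, 9.83 and 10.03 in adjacent livers and 9.60, 9.68 and 9.88 in tumours, with overlapping groups and a difference of -0.20 (95% interval -0.49 to 0.08, adjusted p = 0.562). Its other probes above background differed by between -0.35 and 0.03, with every tumour below every adjacent liver on 2 of the 3, and none was called. Mafg, a small MAF partner of NRF2, differed by -0.22 (adjusted p = 0.473). NRF2 activity is known to be set mainly at the protein level, which these arrays do not read.

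Cbr3, Cbr1 and Nqo1, the quinone and carbonyl reductases among the members, all rose. The reductases Nqo2, Ptgr1, Akr1b8 and Akr7a5, read from the list of other pathway genes, were not called. Cbr3, a carbonyl reductase, read 7.27, 7.15 and 7.35 in adjacent livers and 10.34, 10.83 and 11.27 in tumours, a rise of 3.56 (SE 0.20, adjusted p = 1.08e-06) or 11.8-fold. That difference ranked 20 among all genes, counted from the highest. Its second probe was below background in adjacent liver and at least 4.60-fold higher in tumours (adjusted p = 2.02e-05).

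Cbr1, the related and more broadly acting carbonyl reductase, was already bright in adjacent liver. It read 10.31, 10.64 and 10.64 there and 11.77, 11.95 and 12.73 in tumours, and rose by 1.62 (SE 0.22, adjusted p = 0.00128), which is 3.08-fold. In the RefSeq annotation Cbr1 and Cbr3 lie next to each other on chromosome 16, with 1 gene, not protein-coding, between them. Their proteins are related, and whether either probe also reads the other transcript was not tested.

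Nqo1, the quinone reductase widely used as a readout of NRF2, was at 7.52, 7.62 and 7.67 in adjacent livers and 9.53, 9.05 and 10.41 in tumours. It rose by 2.06 (SE 0.26, adjusted p = 0.000835), or 4.17-fold, with the tumours farther apart from each other (SD 0.69) than the adjacent livers (SD 0.08). Its second probe was below background on all arrays. Ephx1, the microsomal epoxide hydrolase, was bright in both tissues and differed by -0.23 (adjusted p = 0.487). Ugdh, which makes the sugar donor for glucuronidation, and the aldehyde oxidase gene Aox1 were below background on all 6 arrays, so no fold can be read.

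**Figure D2:**
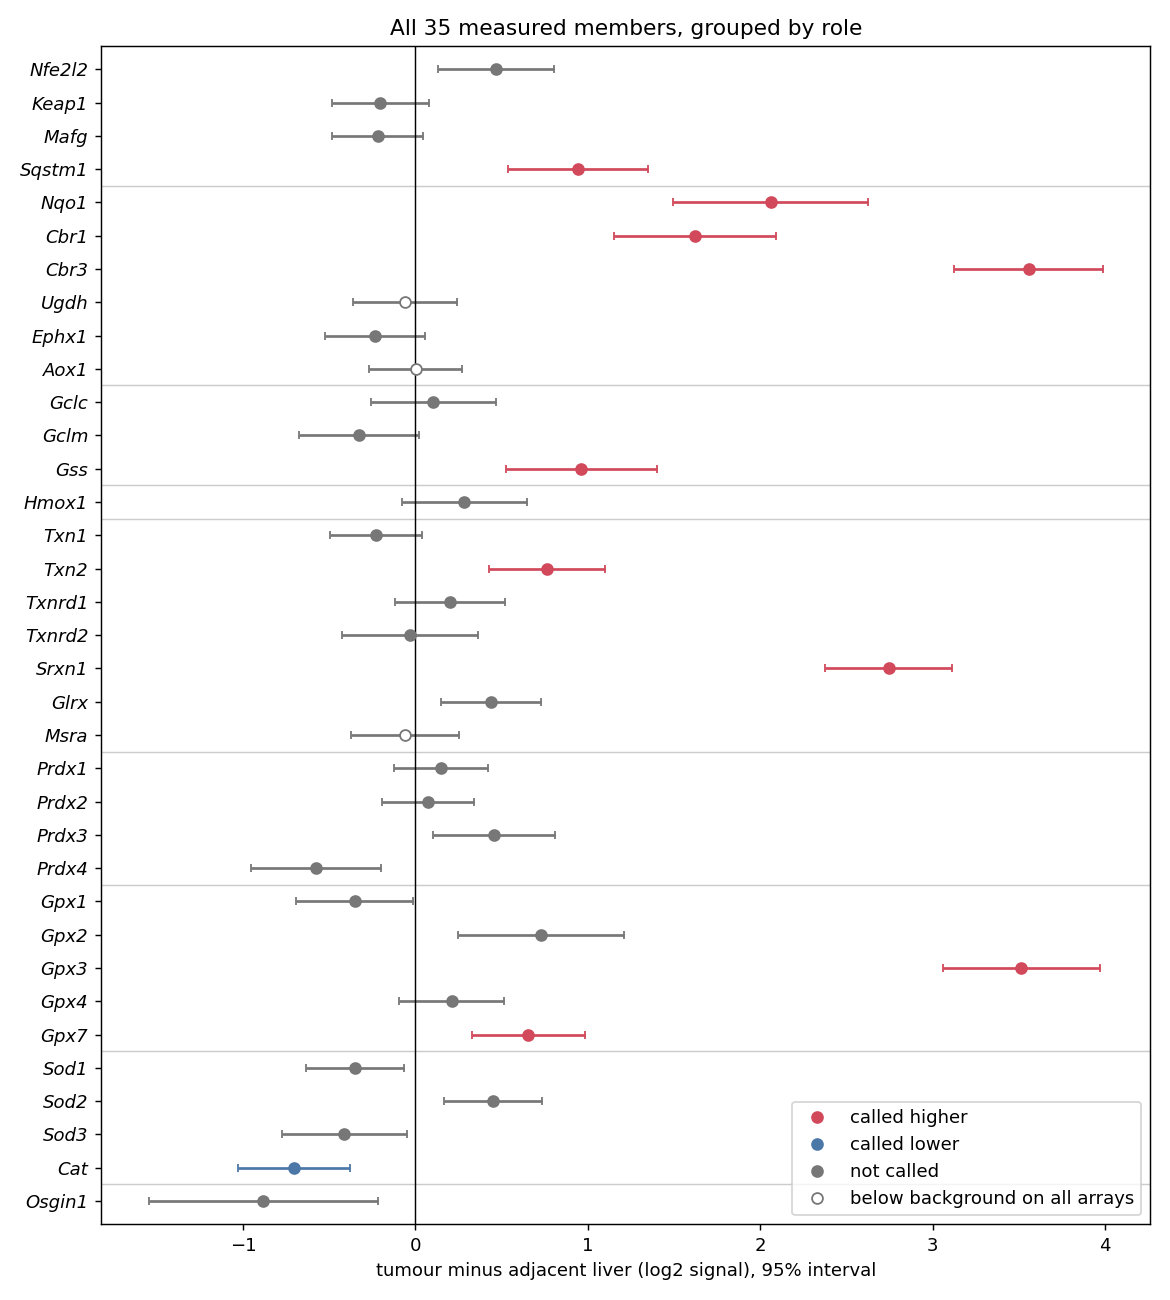
Tumour minus adjacent liver in log2 signal (horizontal axis) for the 35 measured members, in the order of their roles from regulators at the top to Osgin1 at the bottom. Points are differences of 3 against 3 arrays with 95% intervals from limma, and open points are genes below background on all arrays. The intervals of Cbr3, Gpx3, Srxn1, Nqo1 and Cbr1 lie wholly above 1.

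Glutathione synthesis did not move as a unit. Gss, the synthetase of the second step, read 8.83, 9.22 and 9.34 in adjacent livers and 9.77, 9.95 and 10.57 in tumours. It rose by 0.96 (SE 0.20, adjusted p = 0.022), without overlap of the groups, and 2 further probes rose by 0.93 and 0.76. The fourth Gss probe was above background on 1 array only, and with all probes averaged Gss was not called (adjusted p = 0.0869). Nor was it called with a normexp offset of 16 (adjusted p = 0.0776) or without background correction, which the authors' log2 table repeats (0.0639 in each). Without the adjacent liver of 1293, that of 1309 or the tumour of 1316 its adjusted p was 0.0768, 0.0633 and 0.0503.

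The 2 subunits of glutamate-cysteine ligase, which catalyses the rate-limiting first step and is an established NRF2 target, were not called. Gclc, the catalytic subunit, read 7.86, 7.19 and 7.62 in adjacent livers and 7.71, 7.54 and 7.73 in tumours, with a difference of 0.10 (95% interval -0.26 to 0.47, adjusted p = 0.869). Gclm, the modifier subunit, read 11.43, 11.56 and 12.03 in adjacent livers and 11.23, 11.42 and 11.40 in tumours. All 3 tumours were below all adjacent livers for Gclm, with a difference of -0.33 (95% interval -0.67 to 0.02, adjusted p = 0.392).

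Hmox1, haem oxygenase 1, read 7.40, 6.84 and 6.99 in adjacent livers and 7.35, 7.15 and 7.58 in tumours. The groups overlap, and the difference of 0.28 (95% interval -0.08 to 0.65, adjusted p = 0.514) was not called. In liver Hmox1 is known from Kupffer cells as well as hepatocytes. Of the 6 measured Kupffer and macrophage markers 0 were called with limma (2 lower at an unadjusted p under 0.05), and their summed signal was 3300 to 4834 in adjacent livers and 1069 to 3917 in tumours. Clec4f, a Kupffer cell lectin, differed by -1.03, 0.13 and -3.49 in animals 1293, 1309 and 1316. In bulk tissue fewer cells of a type and less RNA per cell cannot be told apart, and the part of these markers in the Hmox1 value was not tested.

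In the thioredoxin system Srxn1 and Txn2 rose and the other 5 measured members were not called. Srxn1, sulfiredoxin, which restores overoxidised peroxiredoxins, read 9.66, 9.71 and 9.33 in adjacent livers and 12.21, 12.07 and 12.65 in tumours. It rose by 2.74 (SE 0.17, adjusted p = 2.37e-06), or 6.70-fold, and its other 2 probes rose by 2.79 and 2.26. Txn2, the mitochondrial thioredoxin, read 9.86, 10.23 and 9.82 in adjacent livers and 10.83, 10.49 and 10.86 in tumours and rose by 0.76 (SE 0.15, adjusted p = 0.0187).

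The Txn2 increase was 0.97, 0.26 and 1.05 in animals 1293, 1309 and 1316, so animal 1309 showed little of it. Its adjusted p was 0.0655, 0.1, 0.092 and 0.0662 without the adjacent liver of 1293, the tumour of 1293, the adjacent liver of 1316 and the tumour of 1316. With a normexp offset of 16 it was 0.1. The dimmer Txn2 probe never exceeded background, and averaging it with the brighter one gave an adjusted p of 0.206. Txn1, the cytosolic thioredoxin, was below every adjacent liver in every tumour, with a difference of -0.23 (adjusted p = 0.453), and was not called.

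Txnrd1, the cytosolic thioredoxin reductase and another established NRF2 target, read 7.0, 6.96 and 7.09 in adjacent livers and 7.01, 7.13 and 7.51 in tumours. Those levels are near background, and the difference of 0.20 (95% interval -0.12 to 0.52, adjusted p = 0.636) was not called. Txnrd2, the mitochondrial reductase, differed by -0.03 on its brightest probe and by -0.66 on the other (adjusted p = 0.969 and 0.0779). Glrx, glutaredoxin, was higher in every tumour than in every adjacent liver on both probes, by 0.44 and 0.45, and was not called (adjusted p = 0.111 and 0.0765). Msra, which repairs oxidised methionine, was below background on all arrays.

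Of the 4 measured peroxiredoxins, the thiol peroxidases that Srxn1 repairs or that act beside its substrates, 0 were called in either direction with limma, and 1 was higher and 1 lower at an unadjusted p under 0.05. Prdx1 read between 14.47 and 14.71 in adjacent livers and between 14.64 and 14.79 in tumours. Prdx2 differed by 0.07 (95% interval -0.19 to 0.34) and Prdx1 by 0.15 (95% interval -0.12 to 0.42). On their dimmer probes, also above background, Prdx2 differed by -0.21 and -0.19 and Prdx1 by 0.06, and none was called. Mitochondrial Prdx3 was 0.46 higher (adjusted p = 0.187) and Prdx4 of the endoplasmic reticulum differed by -0.58 (adjusted p = 0.106), each without overlap of the groups. Prdx4 had an adjusted p of 0.0322 without the tumour of animal 1309.

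The glutathione peroxidases divided by member. Gpx3, the secreted plasma form, read 7.79, 8.32 and 7.96 in adjacent livers and 11.16, 11.43 and 12.03 in tumours. It rose by 3.51 (SE 0.21, adjusted p = 1.81e-06), or 11.4-fold, and ranked 24 among all genes. Gpx7, a peroxidase of the endoplasmic reticulum, read 7.28, 7.10 and 7.15 in adjacent livers and 7.98, 7.51 and 8.0 in tumours and rose by 0.66 (SE 0.15, adjusted p = 0.0354).

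The Gpx7 call ended with a normexp offset of 16 (adjusted p = 0.1) and with probes of each gene averaged (0.0537). It also ended without background correction, which the authors' log2 table repeats (0.0644 in each), and without any 1 of 5 arrays. Its adjusted p was 0.0604, 0.124 and 0.118 without the adjacent livers of 1293, 1309 and 1316, and 0.162 and 0.133 without the tumours of 1293 and 1316. Gpx2, the gastrointestinal form and an NRF2 target, was below background on all adjacent arrays and above it on 2 of 3 tumour arrays, and no fold is given for it. Its adjusted p was 0.113, and 0.0261 with the animal as a fixed replicate block. With that block 10 members were called higher, against 4.55% of all genes, and 1 lower, against 3.11%.

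Gpx1, the abundant cytosolic form, read 15.66, 15.56 and 15.62 in adjacent livers and 15.36, 15.50 and 14.91 in tumours. All tumours were lower, with a difference of -0.35 (95% interval -0.69 to -0.01, adjusted p = 0.321), and the difference was not called. Gpx4, which reduces lipid peroxides in membranes, differed by 0.21 and 0.19 on its probes above background and was called on neither (adjusted p = 0.587 and 0.609).

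In the constitutive layer catalase fell, and the 3 superoxide dismutases were not called. Cat, the peroxisomal enzyme that breaks down hydrogen peroxide, read 13.28, 13.36 and 13.46 in adjacent livers and 12.63, 12.95 and 12.41 in tumours, and fell by 0.71 (SE 0.15, adjusted p = 0.0228). Its second probe differed by -0.43 (adjusted p = 0.134), with every tumour below every adjacent liver on both. The call was lost without the tumour of 1293 (adjusted p = 0.104), the adjacent liver of 1309 (0.077), that of 1316 (0.0999) and the tumour of 1316 (0.0871). It was also lost with a normexp offset of 16 (adjusted p = 0.124) and with both probes averaged (0.0651).

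Sod1, the cytosolic dismutase, read 14.32, 14.36 and 14.57 in adjacent livers and 14.07, 14.18 and 13.94 in tumours. Its difference was -0.35 (95% interval -0.63 to -0.07, adjusted p = 0.211) and not called, and its 2 dimmer probes differed by -0.46 and -0.29, the second being below background in tumours. Sod3, the extracellular form, differed by -0.41 (adjusted p = 0.259) and was above background on 1 of 3 tumour arrays. Sod2, the mitochondrial form, was 0.45 higher in tumours, without overlap of the groups (adjusted p = 0.0959).

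Red blood cells also contain catalase, Sod1, Gpx1 and Prdx2. Of the 5 measured erythroid markers 0 were called with limma, 0 also at an unadjusted p under 0.05, and their summed signal was 25275 to 45460 in adjacent livers and 25855 to 37685 in tumours. Slc4a1, the red cell anion exchanger, was below background on all arrays. The part of blood content in these 4 values was not tested. Osgin1, a stress-induced growth inhibitor and NRF2 target, ranged from 10.80 to 12.32 in adjacent livers and from 10.42 to 11.12 in tumours, differed by -0.88 (SE 0.31, adjusted p = 0.173) and was not called. Without the adjacent liver of animal 1309, the lowest of the 3, its adjusted p was 0.0202.

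**Figure D3:**
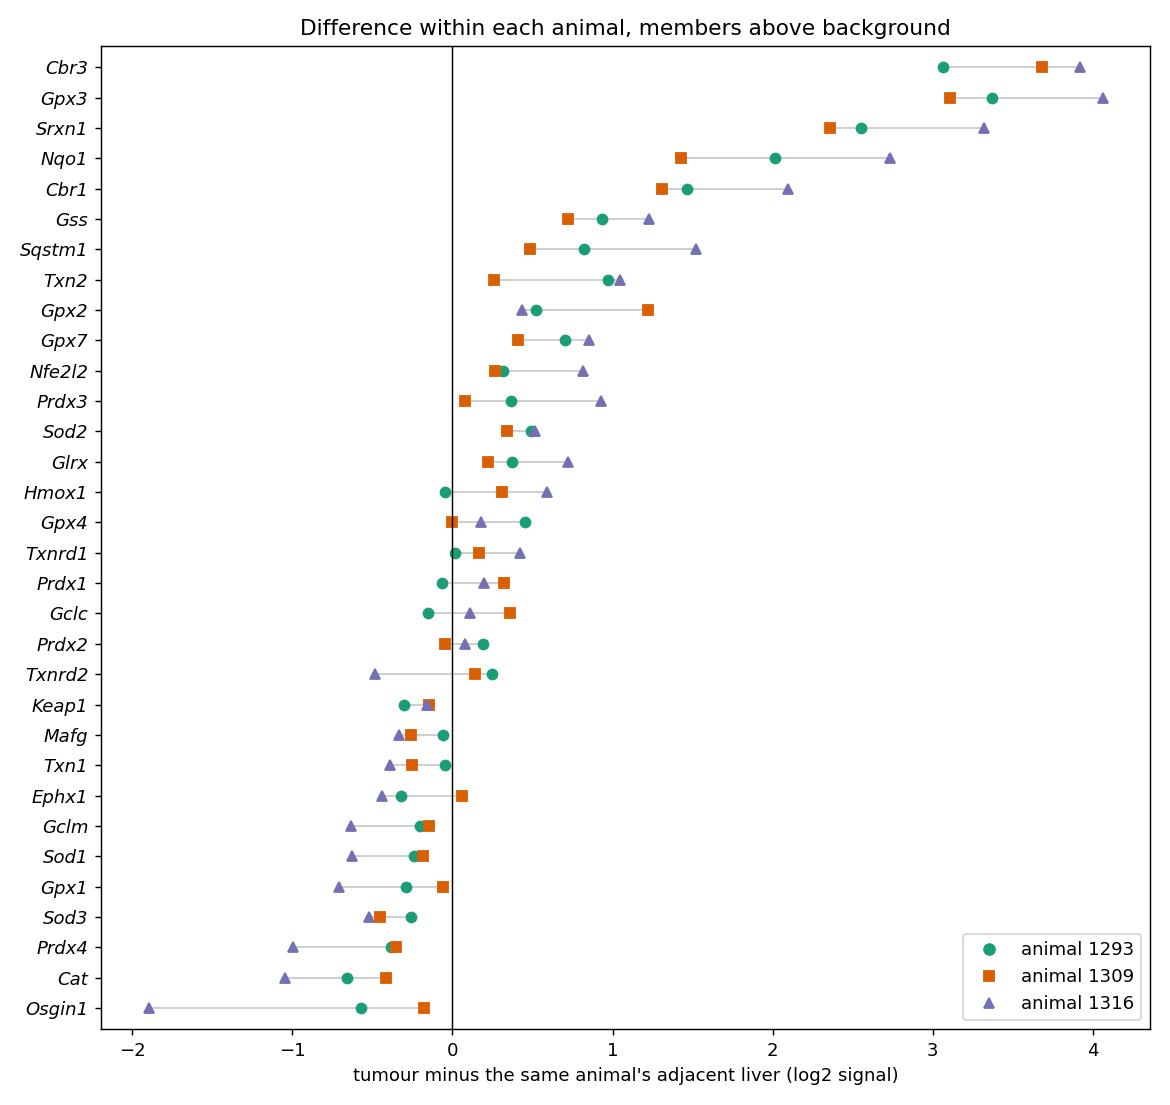
Tumour minus the same animal's adjacent liver in log2 signal (horizontal axis) for the 32 members above background on at least 1 array, ordered by their mean difference. Each symbol is 1 animal, and grey lines span the 3 values. The farthest points on both sides, 4.06 for Gpx3 and -1.90 for Osgin1, are those of animal 1316.

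The animals differed in how far the members had moved. For the 9 members called higher, the median difference within an animal was 1.46 in 1293, 1.31 in 1309 and 2.09 in 1316, and the tumour of animal 1316 was the highest of the 3 tumours for all 9. Members above their own adjacent liver by more than 1 log2 unit numbered 5, 6 and 8 in animals 1293, 1309 and 1316, and members below it by as much 0, 0 and 2. Animal 1316 also stood apart over all genes: 3.31% of genes were higher and 3.09% lower by more than 1 log2 unit, against 2.14% and 1.04% in animal 1293 and 1.31% and 0.0735% in animal 1309. The median difference of the 6 measured Kupffer and macrophage markers was -0.46, 0.13 and -1.22 in animals 1293, 1309 and 1316. The part of these markers in the differences between animals was not tested. With both arrays of animal 1316 left out, a comparison added after the data were seen, 5 members were called higher and 0 lower (2 lower at an unadjusted p under 0.05, limma). Those 5 were Cbr3, Gpx3, Srxn1, Nqo1 and Cbr1, with differences of 3.37, 3.24, 2.46, 1.72 and 1.39. Over all genes the same comparison called 326 higher and 57 lower, against 694 and 298 with all arrays.

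**Figure D4:**
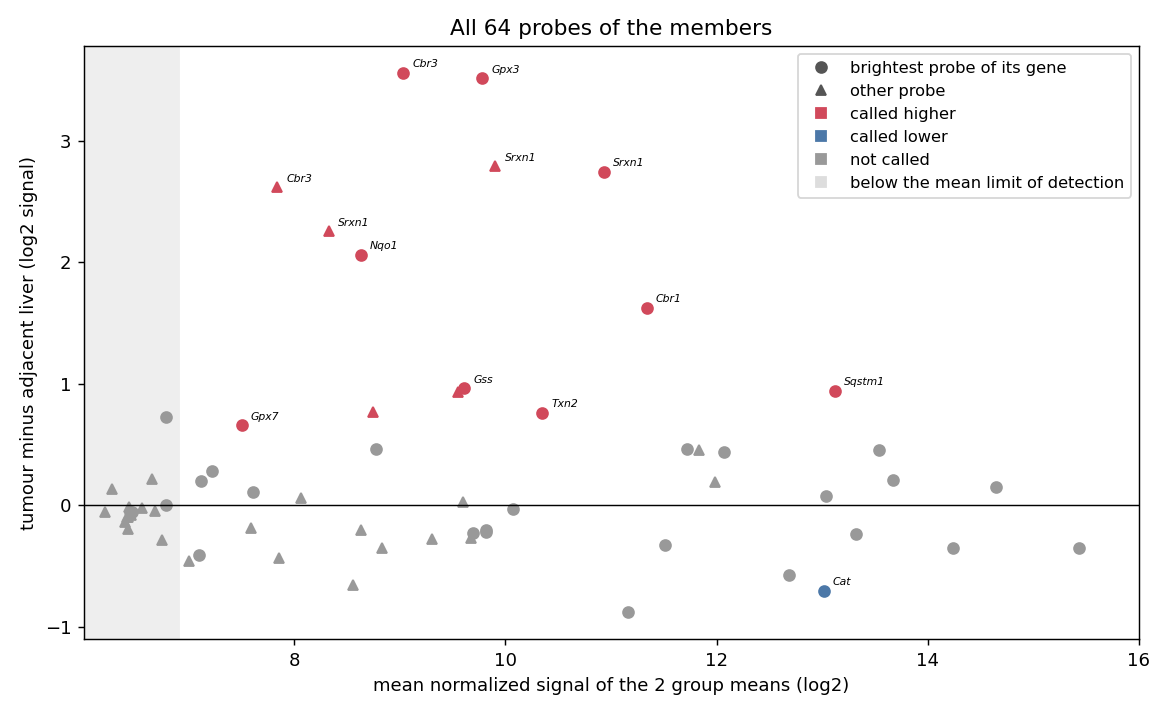
Each of the 64 member probes by its mean log2 signal (horizontal axis, mean of the 2 group means) and its tumour minus adjacent difference (vertical axis, log2). Circles are the brightest probe of a gene and triangles the others, and the grey band lies below the mean limit of detection. The 15 called probes lie outside the band, and the called triangles belong to Cbr3, Srxn1 and Gss, with 1 name for the Gss probes.

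The probes of a gene bear on how firmly a call can be read. Of the 64 probes, 43 were above background on all 6 arrays. The test called 15 of the 64, 14 of them higher and 1 lower, against 2.30% and 1.15% of all probes. The rises of Cbr3, Srxn1 and Gss were seen on 2, 3 and 3 probes. Sqstm1, Cbr1, Gpx3 and Gpx7 have 1 probe each, and Nqo1 and Txn2 have 1 above background, so these increases rest on a single sequence. Groups did not overlap in 14 members with tumours higher and in 7 with tumours lower, against 11.6% and 11.0% of all genes.

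Other genes of the pathway were read from a list of 60, of which 59 were measured (G6pdx was not matched). Of these, 5 were called higher and 2 lower, against 3.64% and 1.56% of all genes, and the median difference was -0.03. Among genes above background 7.85% and 3.55% were called, but 14 of the 59 were below background on all arrays. Of the 5 that rose, 4 were among the 10 genes of glutathione supply and turnover and 1 among the 5 export pumps. With the animal as a fixed replicate block, 6 were called higher and 4 lower, against 4.55% and 3.11% of all genes. Slc7a11, the cystine importer and an NRF2 and ATF4 target, was below background in adjacent liver and at least 2.60-fold higher in tumours (adjusted p = 0.0011), and its partner chain Slc3a2 rose by 1.03 (SE 0.17, adjusted p = 0.0047).

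Cth and Cbs, which make cysteine from homocysteine, rose by 1.73 and 1.21 (SE 0.23 and 0.19), and Abcc4, a pump of the sinusoidal membrane, by 2.53 (SE 0.17, adjusted p = 6.74e-06). Of the other Slc7a11 probes 1 was above background in tumours, and it was not called (adjusted p = 0.0779). A second Cth probe was below background on all arrays. The 2 that fell were the basolateral pump gene Abcc3, by 0.72 (SE 0.16, adjusted p = 0.0302), and Msrb1, a selenoprotein that repairs oxidised methionine, by 0.70 (SE 0.15, adjusted p = 0.0228).

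Of the 9 further regulators, among them Bach1, the repressor that competes with NRF2, 0 were called with limma (1 lower at an unadjusted p under 0.05). Bach1 read 8.27, 7.86 and 8.92 in adjacent livers and 7.48, 7.67 and 7.48 in tumours, a difference of -0.81 (SE 0.22, adjusted p = 0.0686). It was lower in all 3 animals, and its adjusted p was 0.0393 with the animal as a fixed replicate block. Of the 7 measured genes of NADPH supply, which feeds the reductases above, 0 were called (2 lower at an unadjusted p under 0.05), with a median difference of -0.18. Me1, malic enzyme, differed by -0.60 (adjusted p = 0.293, and 0.0206 with that block). Akr1b8, an aldo-keto reductase, differed by 0.75 (adjusted p = 0.0559, and 0.0388 with that block). Bach1, Me1 and Akr1b8 were named after their values were seen. Of the 5 haem and iron genes 0 were called (1 higher at an unadjusted p under 0.05).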

How the data were processed

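Total RNA of 3 tumours and 3 adjacent livers was read on 1-colour Illumina bead arrays. The deposited intensity table holds linear signals, neither background-subtracted nor normalized as its values show, and array medians were 138.4 to 160.5. The submitters' processing notes name GenomeStudio. The authors' log2 table ranks probes as the intensities do and is quantile-normalized, as read from its values, with array medians of 7.26. Its sorted values lie within 0.00063 of the log2 quantile-normalized intensities without background correction. It is used as an alternative, but it repeats the setting without background correction and is not a separate check.

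Intensities were corrected with normexp (offset 50), quantile-normalized and tested with lmFit and eBayes (limma 3.58.1, R 4.3.3, statmod 1.5.0 for the random block), with Benjamini-Hochberg adjustment over 45281 probes, a threshold of 0.05 and no filter. Background was the mode of each array's log2 signals plus 3 SDs mirrored from below it, 168.5 to 191.7 raw units. Where a group was below it on every array, folds are bounds ("at least"): the bright group's mean over the dim group's mean, where each dim array counts at its detection limit after normalization (or at the probe's value if that is higher). The test was tested on simulated data, and the outcome is not given here.

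Symbols came from the platform annotation, updated by gene identifier with RefSeq GRCm38.p6 (34885 probes with 1 symbol, 18 with several, 10378 unlisted, 0 changed). Members and lists were chosen with earlier results of these data known. All measured members are named, with every array's value for called members and for Nfe2l2, Keap1, Nqo1, Gclc, Gclm, Hmox1, Txnrd1, Gpx1, Sod1 and Cat, and called genes of the other pathway list are named.

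The fit has no block. By the titles each tumour and its adjacent liver are paired by animal, and deviations from group means over 14026 expressed probes correlated at 0.41, 0.25 and 0.09 for animals 1293, 1309 and 1316. Between a tumour and the adjacent liver of another animal they correlated at -0.27 to 0.03, so the value for animal 1316 is only a little above that range. The alternatives were 9 other settings, each array left out in turn, and both arrays of 1316 left out. The number of arrays, 3 per group, limits the precision of every value. Each p-value sets a difference against the spread between these samples, which limma moderates towards the spread typical of all probes. The fit without a block treats a tumour and its own adjacent liver as independent.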

Additional observations from a re-analysis of the deposited data

How the results depend on the processing

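Over 16 alternative settings Cbr3, Gpx3, Srxn1, Nqo1 and Cbr1 passed in all 16, with differences of 3.09 to 3.89, 3.22 to 3.70, 2.46 to 2.86, 1.02 to 2.37 and 1.33 to 1.81. Sqstm1 passed in 12, Txn2 and Cat in 9, Gss in 8 and Gpx7 in 6, and no called member changed direction. The authors' log2 table and the setting without background correction are counted as 2 settings. They hold nearly the same values and each called 527 genes higher and 126 lower. Members called higher numbered 5 with a normexp offset of 16 and 5 without both arrays of animal 1316, and between 6 and 9 with 1 array left out. With the animal as a fixed replicate block they numbered 10, Gpx2 being added, and the blocks changed no other member's call. Members called lower numbered 0 with the offset of 16 (4 at an unadjusted p under 0.05, limma), 0 with probes averaged (5) and 0 without animal 1316 (2), and between 0 and 2 with 1 array left out. Other pathway genes called lower numbered 0 with the offset of 16 (7 at an unadjusted p under 0.05), 0 with median scaling (7), 0 without animal 1316 (5), 1 without background correction, 1 in the authors' log2 table, 1 with probes averaged and 4 with the fixed replicate block, and between 0 and 3 with 1 array left out. Those called higher stayed between 4 and 6. Over all genes the offset of 16 gave 448 higher and 58 lower, against 694 and 298 in the main fit. Probes averaged gave 444 and 92, both arrays of animal 1316 left out 326 and 57, and the fixed replicate block 868 and 593. With 1 array left out, genes called higher ranged from 389 to 917 and genes called lower from 51 to 654. The cause of these changes was not tested. Signal near background limits Txnrd1, Hmox1, Gpx2 and Sod3. Among called members, Gpx7 and Cbr3 had adjacent means of 7.18 and 7.26, near the detection limits of 6.90 to 6.97 on the adjacent arrays.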
